A study of Rattus norvegicus with 12 samples.

Results

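The genes described here build and serve the microtubules and neurofilaments of the cell: tubulins, microtubule-associated proteins (MAPs), stathmins, collapsin response mediator proteins (CRMPs), kinesin and dynein motors, and neurofilament subunits. They were chosen by name, as every gene probe whose symbol in the array annotation matched a fixed pattern for these families (for example Tuba, Tubb, Kif, Dync, Nefl). The pattern found 124 probes for 95 genes, of 30367 probes for 26214 genes in all. The arrays carried an older and a newer version of the annotation, and 117 probes matched in both, 3 only in the older one (Kif1a, Kif4a, Stmnd1) and 4 only in the newer one (Kif17, Kif21a, Klc2, Tubb1).

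RNA came from neuron-enriched cultures of the cerebellum of Sprague-Dawley rats taken at 1 day of age. The 6 control cultures received the solvent, dimethyl sulfoxide, at 0.001%, and the 6 acetamiprid (ACE) cultures received the same solvent with 1 µM ACE, a neonicotinoid insecticide that acts on nicotinic acetylcholine receptors. ACE was added from day 2 and renewed at medium changes until harvest at 16 days in vitro, and both groups grew in 1% serum until day 8. Each replicate number joins a control and an ACE culture prepared from the pups of a single litter, so that control versus ACE (CvA) was compared within 6 pairs, and a pooled culture of mixed cells, not a single cell type, stood behind each array.

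Microtubules are hollow polymers of alpha and beta tubulin that are nucleated by gamma tubulin. In neurons, MAPs such as tau (Mapt) and Map2 bind and stabilise them, stathmins bind free tubulin and favour disassembly, and kinesins and dynein walk along them with cargo, toward opposite ends. Neurofilaments are the intermediate filaments of axons, and dividing cells use a separate set of kinesins to build the spindle. Class III beta tubulin (Tubb3), Dcx and Stmn2 are widely used to mark young neurons.

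Probe sequences on which the CvA values below rest are shown first, because on an array a probe, not a gene, is measured. The first 30 of the 60 bases of each are given, 5′ to 3′, with the position of the whole probe in the rn4 build as the array files state it. No annotation of that build was used here, so the exon or untranslated region of a probe is not given. The capitals in the pair of Kif2c probes mark the stretch that they share: their positions differ by 8 bases and 52 of the 60 bases are identical.
Kif1c (chr10:57622259-57622318, plus strand): gtctgcatagccagtgtttgactttctttt
Kif7 (unplaced part of chromosome 19, bases 433460 to 433519, plus strand): aaatcactgcaaatgaggctccggccaaca
Kif2c, first probe (chr5:137474203-137474262, minus strand): gccatgcaACTGGAAGAACAGGCTAGCAAA
Kif2c, second probe (chr5:137474195-137474254, minus strand): ACTGGAAGAACAGGCTAGCAAACAAATAAA
Dynlrb2, first probe (chr19:46547791-46547850, minus strand): cagaatgacctgacttttcttaggatcaga
Dynlrb2, second probe (chr19:46547025-46547799, minus strand): gtagccccagataaggaatatcttctgatt
Tubb3 (chr19:53751646-53751705, plus strand): tgggttgtgtttatatttggaggggggtct
Nefh (chr14:85595648-85595707, minus strand): aagaggctaaacccaaagagaaggcagaag
The second Dynlrb2 probe maps over 775 bases although it is 60 bases long. The Kif2c pair was the only pair of the 124 probes (7626 pairs compared) with an identical run of 20 bases or more. Shorter matches between near-identical tubulin transcripts, such as those of Tuba1a, Tuba1b and Tuba1c, can still let a probe bind more than a single product, and their values are uncertain to that extent.

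Levels below are log2 of the processed intensity after quantile normalisation, and a difference is the ACE level minus the control level of the same replicate, averaged over pairs. A probe was tested where at least 7 of its 12 values lay above the 20th percentile of their own arrays. Of the 124 probes, 119 for 92 genes were tested, and 109 of these were well above background on 12 of 12 arrays. The 5 probes left out belonged to Tubb1, Kif21b, Kif2b and Kif6 (2 probes).

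Skeletal muscle genes set libraries apart. Their list mean ranged from 7.35 to 11.93 in control, with 11.42 in replicate 1, 11.93 in replicate 2 and 9.36 in replicate 6, and from 7.25 to 10.60 in ACE, with the highest value in replicate 1. All 13 probes had a negative mean difference, with a median of -1.12 and 3 lower at unadjusted p below 0.05 (9.73% of all probes), while Ckm was well above background on 4 of 12 arrays. The astrocyte list was centred at -0.07, with a list mean of 13.60 to 14.61 in control and 13.56 to 14.55 in ACE. The microglia list was centred at 0.10, with 11.60 to 12.11 and 11.61 to 12.19. Its probes split, with 3 higher and 1 lower of 12 at unadjusted p below 0.05 (6.9% and 9.73% of all probes). Cx3cr1 was lower in 6 of 6 pairs (-0.35) and a Csf1r probe higher in 6 of 6 (0.28). The microglia median was 0.42 in pair 1 and -0.08 to 0.10 in the other pairs.

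No probe of the families passed the limma test after Benjamini-Hochberg adjustment over all 23796 probes (0 of 119; lowest adjusted p = 0.147), as no probe of the whole array did (percent called 0). At an unadjusted limma p below 0.05, 11 probes were higher and 4 lower in ACE. This was 9.24% and 3.36% of the 119 probes, beside 6.9% higher and 9.73% lower of all probes tested. In all 6 pairs the same way, where the exact signed-rank test gives its smallest p of 0.03125, lay 5 probes higher and 3 lower, beside 4.72% and 6.86% of all probes. The probes at unadjusted p below 0.05 differed by 0.06 to 0.34 on the log2 scale, and no member reached the study's 1.5-fold threshold (0 of 119, beside 410 of all 23796 probes).

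The direction of the whole set depended on scaling. With quantile normalisation 82 probes were above 0 and 37 below, with a median difference of 0.02 (all probes -0.005). With each array shifted to a common 75th percentile instead, 59 were above and 60 below 0, and 7 were higher and 8 lower at unadjusted p below 0.05, beside 3.39% higher and 14.3% lower of all probes. The same shift moved the share of higher probes among all probes at unadjusted p below 0.05 from 41.5% to 19.1%, and the deposited values gave 51.5%. The control and ACE groups overlapped for 119 of 119 members, and of all probes tested 0.0126% had groups that did not overlap. Without replicate 2, the pair with the largest difference in muscle genes, 6 members were higher and 3 lower at unadjusted p below 0.05, beside 4.89% and 6.93% of all probes. Without replicate 5 the counts were also 6 and 3, beside 5.41% and 7.45%.

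**Figure D1:**
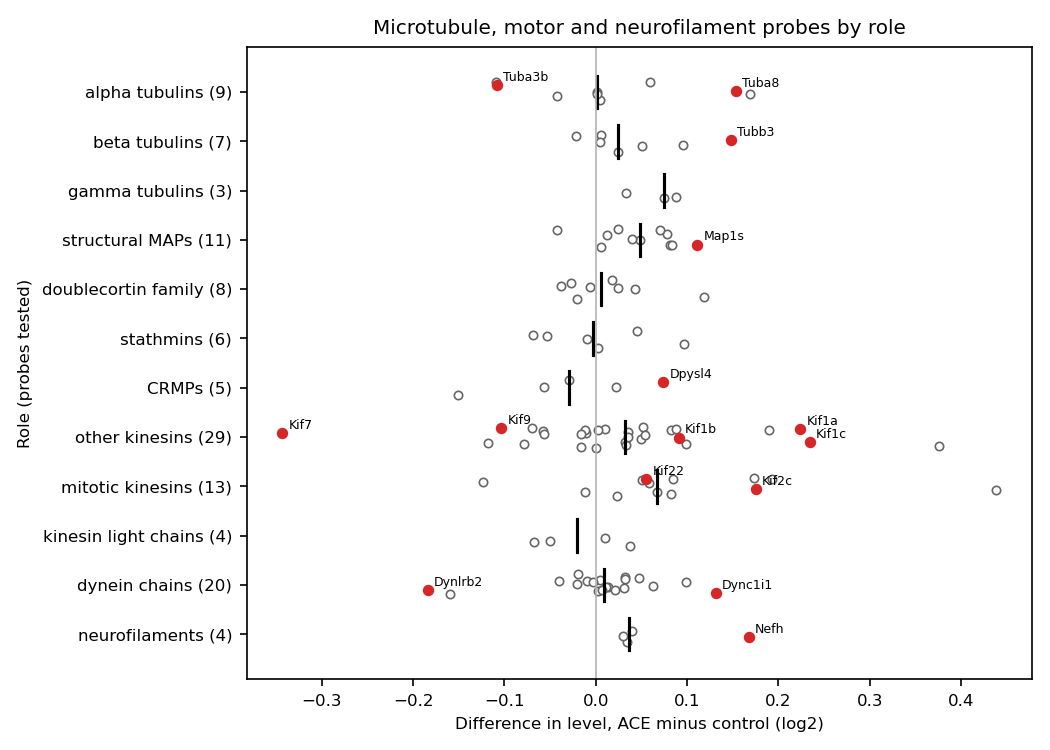
ACE minus control difference of each of the 119 probes tested (x axis, log2), by role (y axis, number of probes in brackets). Filled points have an unadjusted limma p below 0.05 and are named, open points do not, and vertical bars are medians; the medians lie between -0.03 and 0.07.

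Alpha and beta tubulins are the building blocks of the polymer. The main alpha tubulin of developing neurons, Tuba1a, lay at 17.37, 17.60 and 17.78 in control (lowest, median, highest) and at 17.42, 17.60 and 17.75 in ACE. The groups coincided, with a difference of 0.00 and a 95% interval from -0.06 to 0.06. Tuba1b (0.06 and 0.00 for its 2 probes), Tubb2a (0.02), Tubb2b (-0.02), Tubb4b (0.01), Tubb5 (0.05) and Tubb6 (0.00) did not pass at an unadjusted p of 0.05 either. Tuba1c had 2 probes below 0, at -0.11 and -0.04 (limma adjusted p = 0.306 and 0.523).

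Tubb3, the neuronal beta tubulin, lay at 9.86, 10.45 and 10.83 in control and at 10.07, 10.62 and 10.81 in ACE. It was higher in 5 of 6 pairs and lower in pair 4 (-0.05), with a difference of 0.15 (SE 0.05, 95% interval 0.04 to 0.26, limma adjusted p = 0.213). Within replicates 4, 5 and 6, whose slides share a scan batch, the difference was 0.07, which did not pass at an unadjusted p of 0.05. Tuba8, an alpha tubulin with a divergent sequence, was higher in 6 of 6 pairs, from 0.03 to 0.32, and by 0.15 on average (limma adjusted p = 0.206). Within replicates 4, 5 and 6 Tuba8 also differed by 0.15, but did not pass at an unadjusted p of 0.05. Tuba3b was lower in 6 of 6 pairs, by 0.11 on average (limma adjusted p = 0.206), while its close relative Tuba3a differed by 0.17 the other way (limma adjusted p = 0.362). Tuba3b did not pass at an unadjusted p of 0.05 within replicates 4, 5 and 6 (-0.06), or with the replicate as a random block (limma adjusted p = 0.584). The Tuba3b difference was small beside the range of its level between replicates, which ran from 6.82 in replicate 3 to 9.04 in replicate 1 (mean of the pair).

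Gamma tubulin sits at the organising centres from which microtubules grow. Its 3 probes (Tubg1 0.07, Tubg2 0.09 and 0.03) were above 0, and none passed at an unadjusted limma p of 0.05. The brighter Tubg2 probe was higher in 6 of 6 pairs, by 0.00 to 0.32, and is 1 of the 5 probes counted by the exact signed-rank test. With the 75th percentile shift 2 of the 3 were above 0.

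The structural MAPs, which bind along the lattice, had 10 of 11 probes above 0 and a median difference of 0.05. With the 75th percentile shift 9 and with the normexp background 8 of the 11 were above 0. Only Map1s, a MAP expressed beyond neurons, passed at unadjusted p below 0.05: it was higher in 5 of 6 pairs, with a difference of 0.11 (limma adjusted p = 0.26), and did not pass at that p without replicate 2, 5 or 6 (0.08 to 0.11). The dendritic protein Map2 lay at 11.41, 11.88 and 12.95 in control and at 11.59, 12.02 and 12.86 in ACE, higher in 2 of 6 pairs. Its interval ran from -0.10 to 0.19. Map1b, a MAP of growing axons, differed by 0.08 (interval -0.03 to 0.19), and Mapt by -0.04 (interval -0.10 to 0.02).

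Doublecortin proteins, stathmins and CRMPs act at the growing end of young axons. Dcx lay at 9.41, 10.14 and 10.51 in control and at 9.35, 10.07 and 10.53 in ACE, with 3 of 6 pairs higher and an interval from -0.09 to 0.05. Dclk1 differed by 0.04, Stmn1 by -0.01 and Stmn2 by -0.07 (interval -0.25 to 0.12). Among the CRMPs, the abundant Dpysl2 differed by 0.02 and Dpysl3 by -0.06, and Dpysl4 was higher in 5 of 6 pairs by 0.07 (limma adjusted p = 0.276). Its difference was 0.03 with normexp, and it did not pass at an unadjusted p of 0.05 there or without replicate 1, 2, 3, 4 or 5 (0.06 to 0.08). Dpysl5 was lower in 5 of 6 pairs by 0.15, without passing (limma adjusted p = 0.355). The doublecortin family (median 0.01, 8 probes), the stathmins (-0.00, 6 probes) and the CRMPs (-0.03, 5 probes) were centred near 0, and the sign of the first median turned with the 75th percentile shift (-0.04).

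Kinesins carried the lowest p-values in both directions. Kif1c, a motor that moves vesicles and dense-core granules, lay at 9.68, 10.15 and 10.40 in control and at 9.90, 10.47 and 10.63 in ACE. It was higher in 6 of 6 pairs, from 0.07 in pair 1 to 0.46 in pair 6. The difference was 0.23 (SE 0.05, 95% interval 0.12 to 0.35, 1.18-fold, limma adjusted p = 0.147). Leaving out each replicate in turn gave 0.19 to 0.27, and it passed at an unadjusted p of 0.05 each time.

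Kif7, a ciliary kinesin of the Hedgehog pathway, went the other way. It lay at 5.29, 5.64 and 6.78 in control and at 4.93, 5.29 and 6.62 in ACE, and was lower in 6 of 6 pairs, from -0.12 in pair 3 to -0.72 in pair 6. The difference was -0.34 (SE 0.09, 95% interval -0.56 to -0.13, 1.27-fold lower, limma adjusted p = 0.18). The array files describe the transcript behind this probe as similar to a Kif27 product, a close relative, so its identity is uncertain. The probe was dim, well above background on 6 control and 5 ACE arrays, and the difference was -0.16 with the normexp background correction, which adds a constant to all intensities.

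Kif1a, a motor of synaptic vesicle precursors, lay at 7.78, 8.26 and 8.64 in control and at 8.18, 8.45 and 8.68 in ACE, a difference of 0.22 (limma adjusted p = 0.252). The pairs fell into separate ranges: -0.00, 0.08 and 0.04 in replicates 1, 2 and 3, and 0.31, 0.53 and 0.39 in replicates 4, 5 and 6. Within the latter, which share a scan batch, the difference was 0.41 (limma adjusted p = 0.334), and without any of these 3 it was 0.16 to 0.21 and did not pass at an unadjusted p of 0.05. The newer annotation does not name this probe as Kif1a. A Kif1b probe was higher by 0.09 in 4 of 6 pairs (limma adjusted p = 0.291), and the other 2 Kif1b probes differed by 0.01 and 0.09. The first did not pass at an unadjusted p of 0.05 with the 75th percentile shift or normexp (0.08 in each), or without replicate 2, 3, 4 or 5 (0.07 to 0.10).

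The conventional kinesin of axonal transport showed values close to 0. Kif5b differed by 0.05 (interval -0.02 to 0.12), Kif5c by 0.05 (-0.12 to 0.23), Kif5a by -0.07 (-0.24 to 0.10), the light chain Klc1 by -0.07 (-0.19 to 0.05), and Kif3a, of the kinesin-2 motor, by 0.00 (-0.06 to 0.06). The dynein chains, which serve retrograde transport and, as dynein-2 (Dync2h1, Dync2li1) and in part as Dynlrb2, cilia, were centred at 0.01 over 20 probes (13 above and 7 below 0). With the 75th percentile shift their median was -0.01, with 8 above and 12 below 0. The heavy chain of the transport motor, Dync1h1, lay at 13.45, 13.60 and 13.63 in control and at 13.47, 13.54 and 13.76 in ACE, and the light chain Dynll1 differed by -0.02 (interval -0.07 to 0.03). Dynll1 was lower in 6 of 6 pairs, by up to 0.04, and is 1 of the 3 probes counted as lower by the exact signed-rank test, while its second probe differed by 0.00, with 3 of 6 pairs higher. A probe of Dync1i1, the neuronal intermediate chain, was higher in 5 of 6 pairs by 0.13 (limma adjusted p = 0.276), and its second probe differed by 0.10 (limma adjusted p = 0.49). The first probe did not pass at an unadjusted p of 0.05 with normexp (0.10), within replicates 4, 5 and 6 (0.06), or without replicate 1, 2, 4 or 5 (0.09 to 0.14).

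**Figure D2:**
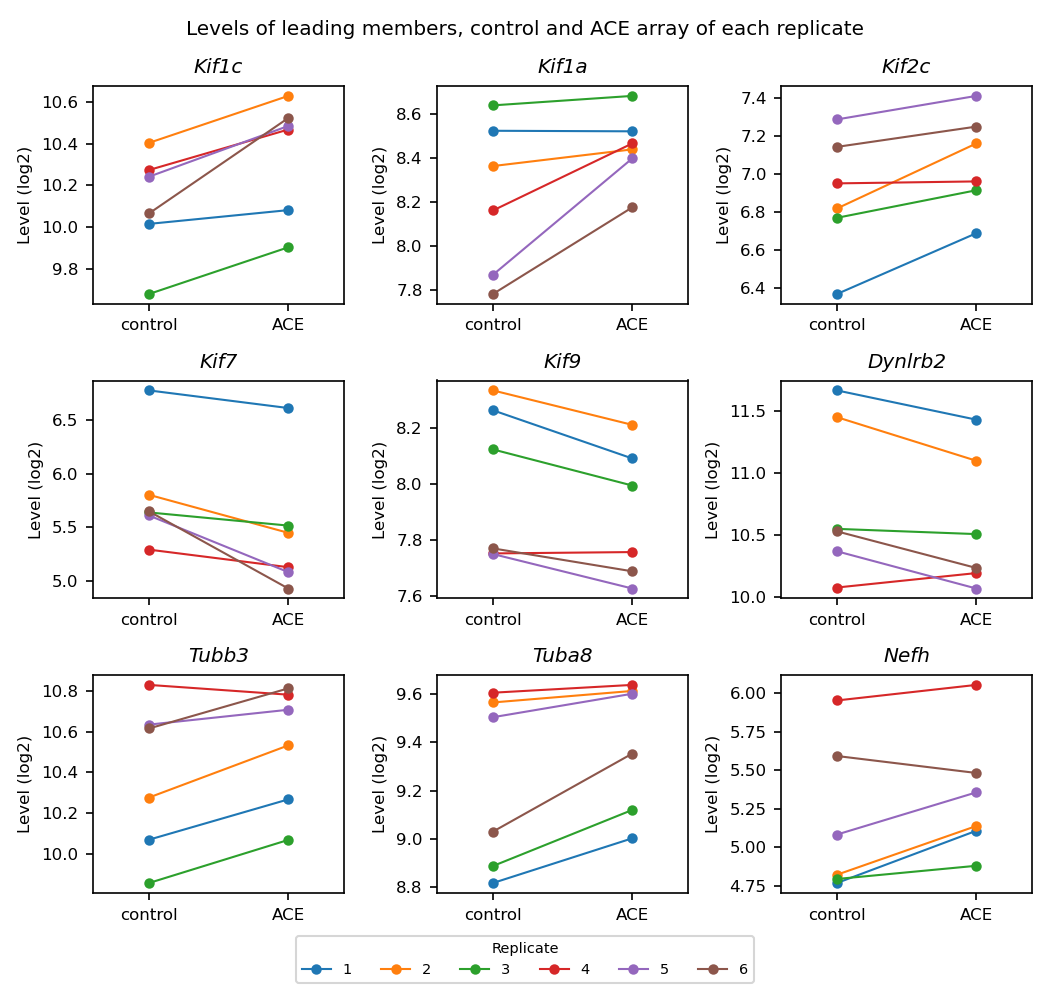
Levels (y axis, log2 intensity) of 9 genes on the control and the ACE array of each replicate (x axis), joined by a line per replicate. Kif1c and Kif2c lines slope upward and Kif7 lines downward in 6 of 6 replicates, while replicates differ in level by more than the slopes.

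Dynlrb2 and Kif9 belong to the machinery of motile cilia, which ependymal cells carry. The first Dynlrb2 probe lay at 10.08, 10.54 and 11.66 in control and at 10.07, 10.37 and 11.43 in ACE. It was lower in 5 of 6 pairs, by 0.04 to 0.35, and higher by 0.12 in pair 4. The difference was -0.18 (SE 0.07, 95% interval -0.35 to -0.02, limma adjusted p = 0.263), and the second probe gave -0.16 with the same sign in each pair (limma adjusted p = 0.309). The first probe did not pass at an unadjusted p of 0.05 without replicate 1, 2, 5 or 6 (-0.17 to -0.15). Kif9 was lower in 5 of 6 pairs and differed by -0.10 (limma adjusted p = 0.198), and by -0.07 within replicates 4, 5 and 6, which did not pass at an unadjusted p of 0.05.

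The marker list for ependymal or ciliated cells differed in the same pairs. Of its 7 probes for 6 genes, 4 were lower and 0 higher at unadjusted p below 0.05 (9.73% and 6.9% of all probes), with a median of -0.11. The list mean over probes was 9.89 to 10.94 in control and 9.72 to 10.81 in ACE. Foxj1, the master regulator of motile cilia, was lower in 6 of 6 pairs (-0.13, limma adjusted p = 0.198), whereas Rsph1, of the radial spokes, was higher in 4 of 6 (0.07, limma adjusted p = 0.429). The list median was above 0 only in pair 4 (0.05). All 7 probes were well above background on 12 of 12 arrays. In bulk RNA, fewer cells of a type and less RNA per cell cannot be told apart, and the part of ciliated cells in the Dynlrb2 and Kif9 values was not tested. The remaining Kif6 probe and the 2 Kif27 probes, also of ciliary kinesins, were dim and differed by -0.02, -0.12 and 0.03. The kinesin-2 motors, which serve cilia as well as axons, were well above background on 12 of 12 arrays, with Kif3a at 0.00 and the 2 Kif3b probes at 0.05 and 0.03.

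The group of mitotic kinesins, most of which build and move the spindle, had 11 of 13 probes above 0 and a median of 0.07 (9 of 13 with the 75th percentile shift). Kif2c, which depolymerises microtubule ends at kinetochores, lay at 6.37, 6.88 and 7.29 in control and at 6.69, 7.06 and 7.41 in ACE with its first probe. It was higher in 6 of 6 pairs by 0.18 on average (SE 0.05, 95% interval 0.05 to 0.30, limma adjusted p = 0.199). The second probe, with 52 bases in common, differed by 0.08 and was lower by 0.17 in pair 4, where the first probe was 0.01 higher (limma adjusted p = 0.466). The first probe differed by 0.10 with the 75th percentile shift and by 0.08 within replicates 4, 5 and 6, and did not pass at an unadjusted p of 0.05 in either.

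Kif22, a chromosome-arm motor, was higher in 6 of 6 pairs by only 0.06 (0.02 to 0.09, limma adjusted p = 0.295), and it did not pass at an unadjusted p of 0.05 when any 1 replicate was left out (0.05 to 0.06). Kif11, the motor that separates the spindle poles, differed by 0.08 (limma adjusted p = 0.304) and Kif15 by 0.17 (limma adjusted p = 0.338). The difference of Kif4a, 0.44, rested on a dim probe with 1.90 in pair 5 and -0.13 to 0.46 in the other 5 pairs (limma adjusted p = 0.447).

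The proliferation markers lay beside these values. Of 18 probes for 12 genes, 2 were higher and 0 lower at unadjusted p below 0.05 (6.9% and 9.73% of all probes), among them Aurka, a spindle kinase (0.15, limma adjusted p = 0.154), and the median was 0.03. The list mean over probes was 9.14 to 9.57 in control and 9.20 to 9.56 in ACE. Over pairs 1 to 6 the proliferation median was 0.12, 0.09, 0.10, -0.09, -0.01 and 0.01, and that of the mitotic kinesins 0.13, 0.09, 0.04, -0.03, 0.07 and 0.06. Pair 4 was lowest for both lists. The part of the share of dividing cells in these values was not tested.

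**Figure D3:**
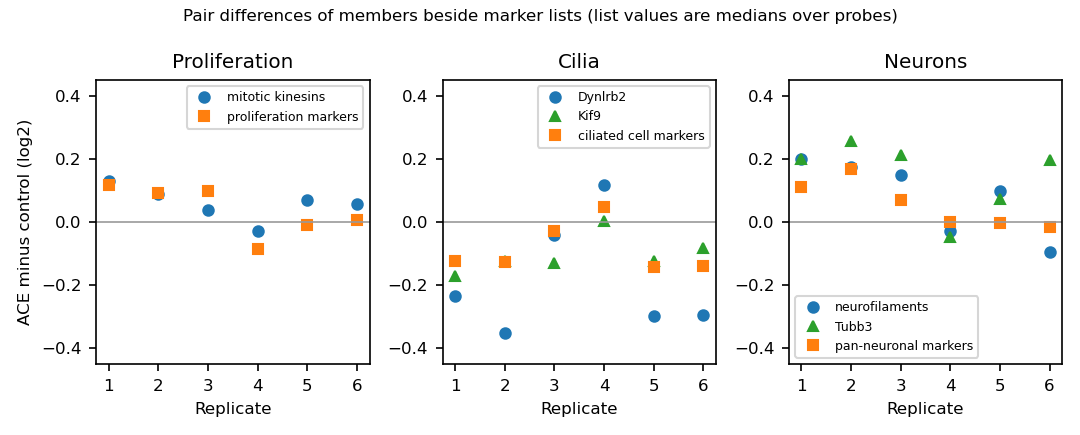
ACE minus control difference (y axis, log2) in each replicate (x axis) for members and the marker list set beside them; for lists the point is the median over probes. Pair 4 lies lowest for mitotic kinesins and proliferation markers and is the only pair above 0 for the ciliated cell list.

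The neurofilament subunits gave 4 of 4 probes above 0 (3 of 4 with the 75th percentile shift). Nefl lay at 6.55, 7.39 and 8.35 in control and at 6.73, 7.56 and 8.23 in ACE, with 3 of 6 pairs higher. Its interval was wide, from -0.23 to 0.29. Nefm differed by 0.04 (interval -0.08 to 0.16) and Ina, the internexin that joins neurofilaments in young neurons, by 0.03 (-0.03 to 0.10). Nefh, the heavy subunit of mature axons, lay at 4.77, 4.95 and 5.95 in control and at 4.88, 5.25 and 6.05 in ACE, higher in 5 of 6 pairs by 0.17 (limma adjusted p = 0.279). The difference was 0.03 with the 75th percentile shift and 0.05 with normexp, and neither passed at an unadjusted p of 0.05. It was 0.13 to 0.22 with a replicate left out, and passed at that p only without replicate 6.

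The pan-neuronal markers gave 1 probe higher of 11 at unadjusted p below 0.05 (Stx1a, 0.12, limma adjusted p = 0.205) and 0 lower, with a median of 0.07 (6.9% higher and 9.73% lower of all probes). Their list mean over probes was 9.41 to 10.18 in control and 9.57 to 10.18 in ACE. By pair, the neurofilament median was 0.20, 0.17, 0.15, -0.03, 0.10 and -0.09, and the pan-neuronal median 0.11, 0.17, 0.07, -0.00, -0.00 and -0.02. Both were highest in pairs 1, 2 and 3. The lists for the 2 main cerebellar neuron types were centred below 0. Granule cell markers had 3 of 10 probes above 0 and a median of -0.04, with 1 higher (Neurod2, 0.18, limma adjusted p = 0.294) and 0 lower at unadjusted p below 0.05. Purkinje cell markers had 4 of 9 above 0 and a median of -0.01, with 0 higher and 1 lower (Pcp4, -0.12, lower in 6 of 6 pairs, limma adjusted p = 0.27). The part of neuronal content in the Tubb3 and neurofilament values was not tested.

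For 24 genes picked to stand for the families, with earlier results of these data known, 16 differences were above and 8 below 0. Their 95% intervals ran from -0.25 at the lowest limit to 0.42 at the highest, and 24 of 24 lay within a 1.5-fold change in either direction (0.585 on the log2 scale). Of all 119 member probes 114 did so, beside 21165 of all 23796 probes tested. The 5 member probes whose intervals were wider belonged to Dclk3, Kif4a, Kif4b, Kif6 and Kif17. Kif17 had the widest, from -0.74 to 1.49, with pairs between -1.78 and 2.22. Of the 25 genes with several probes tested, 16 had all probes on the same side of 0 and 9 had probes on both sides.

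Replicates differed more than groups. The SD between the 6 replicate means was larger than the CvA difference for 119 of 119 members, as for 22948 of all 23796 probes. Its median over members was 0.27, beside a median CvA difference of 0.05 regardless of sign. Stmn4, a neuronal stathmin, ranged from 11.67 in replicate 3 to 14.05 in replicate 6, while its CvA difference was -0.05 (interval -0.26 to 0.16).

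Map1b lay at 9.16, 9.30 and 9.57 in replicates 1, 2 and 3 and at 10.39, 10.63 and 10.67 in replicates 4, 5 and 6. Ina was likewise lowest in replicate 1, at 9.32, and highest in replicate 5, at 10.78, whereas Map2 was highest in replicate 1, at 12.90, and lowest in replicate 6. Nefm and Stmn2 were lowest in replicate 3 in both groups, at 8.60 and 13.01 as pair means. Each replicate also had its own slide, and replicates 4, 5 and 6 were scanned as a batch. Litter, slide and scan batch therefore cannot be told apart for these levels.

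**Figure D4:**
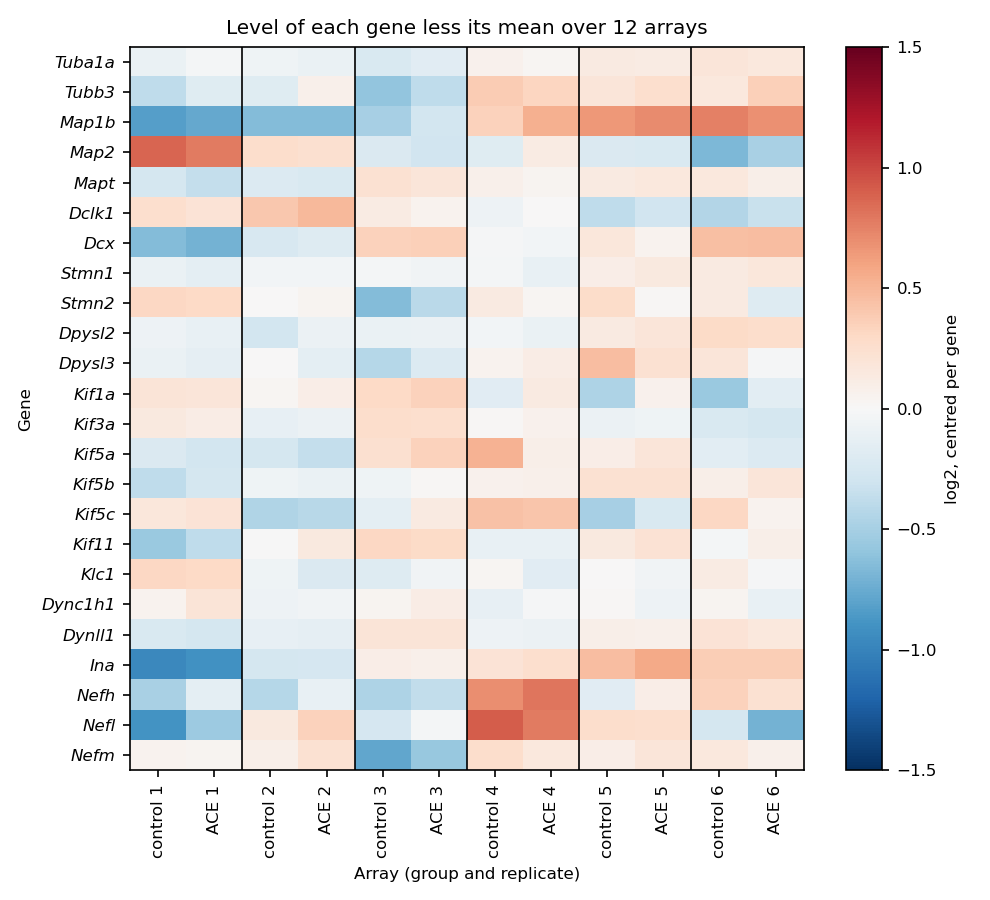
Level of each of the 24 genes picked to stand for the families (y axis) on each array (x axis, pairs between vertical lines), less the mean of that gene over the 12 arrays (colour, log2). The colours of the control and ACE array of a replicate resemble each other, and replicates differ, as for Map1b, Ina and Map2.

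**Figure D5:**
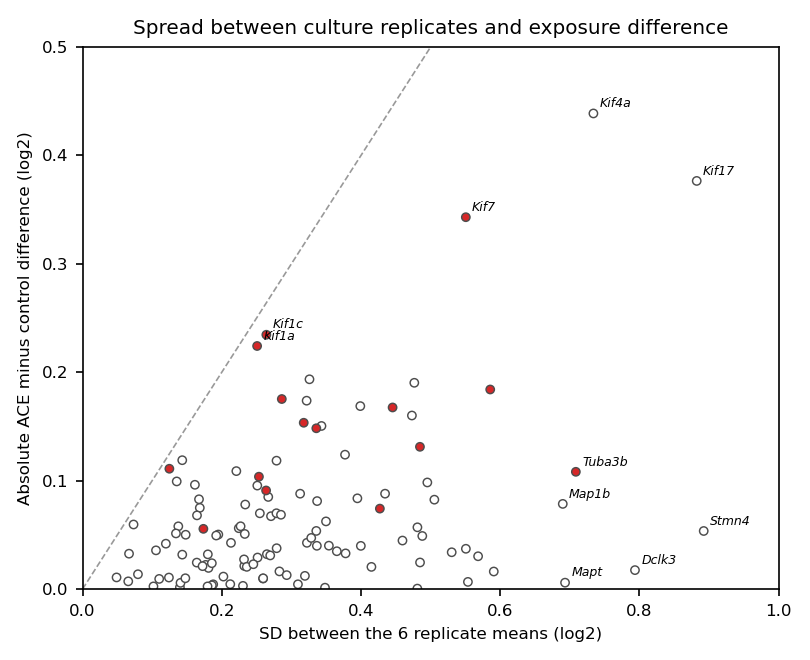
Size of the CvA difference (y axis, log2) against the SD between the 6 replicate means (x axis, log2) for the 119 probes tested, filled where the unadjusted limma p is below 0.05. All points lie below the dashed line of equal values.

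Regulatory sequence was compared for 75 of the 95 genes, with 81 start-site windows of 300 bases (250 before and 50 after the start) in the RefSeq-based promoter table of the GRCr8 build. CCAAT, on either strand, was present in 5 of 7 windows of alpha tubulin genes (71.4%), 7 of 9 of beta tubulin genes (77.8%) and 7 of 12 of mitotic kinesins (58.3%), beside 37.5% of all 33469 windows. TTTGAA, the core of the cell cycle homology region of genes expressed in mitosis, was present in 5 of 12 mitotic kinesin windows (41.7%), 2 of 6 windows of structural MAPs (33.3%) and 2 of 7 of alpha tubulins (28.6%), beside 18.3% of all windows. Over all members it was present in 11 of 81 (13.6%), and CCAAT in 35 of 81 (43.2%). These letters were picked after the values were seen, and matches of different motifs may overlap. Also searched on both strands in the 12 mitotic kinesin windows were GGCGG (11 windows, beside 85.2% of member windows and 46.8% of all) and GCGTG (5 windows, beside 51.9% and 29.7%). The sequence GTTGCC was found in 3 (21.0% of member windows and 12.2% of all), TTCGAA in 1 (2.47% and 1.69%), and TTTCGCGC (0.326% of all) and the NRF1 palindrome (0.852% of all) in 0. A match describes the letters only.

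The windows of Kif22 and Kif20b are shown because they hold TTTGAA, that of Tubb3 because it holds CCAAT, and that of Kif1c, the member with the lowest p-value, because it holds neither. Each runs from 100 bases before to 30 bases after the start, and capitals mark either motif or its reverse complement.
Kif22 (GRCr8, chr1:191080849-191080978, minus strand): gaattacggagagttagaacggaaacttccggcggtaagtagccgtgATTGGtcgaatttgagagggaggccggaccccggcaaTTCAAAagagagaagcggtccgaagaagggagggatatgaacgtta
Kif20b (GRCr8, chr1:241840916-241841045, plus strand): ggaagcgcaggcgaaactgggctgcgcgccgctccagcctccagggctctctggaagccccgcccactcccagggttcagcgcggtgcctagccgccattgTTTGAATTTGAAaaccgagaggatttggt
Tubb3 (GRCr8, chr19:68365587-68365716, plus strand): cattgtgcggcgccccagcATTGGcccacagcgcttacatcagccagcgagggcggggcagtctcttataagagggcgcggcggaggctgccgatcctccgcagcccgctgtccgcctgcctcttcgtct
Kif1c (GRCr8, chr10:55912993-55913122, plus strand): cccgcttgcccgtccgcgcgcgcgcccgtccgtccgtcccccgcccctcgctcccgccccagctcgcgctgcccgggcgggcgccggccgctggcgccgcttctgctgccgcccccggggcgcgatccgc

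Other genes of the microtubule and filament system, from lists of 85 genes outside the name pattern, gave 6 probes higher and 9 lower of 100 at unadjusted p below 0.05, with a median of 0.01 (0 past adjustment, lowest limma adjusted p = 0.141). These counts were close to the shares over the array, 6.9% higher and 9.73% lower, against which the counts of the smaller lists below also stand. Kinases and phosphatases of tau and MAPs gave 1 probe higher and 2 lower of 10. Mark4, a kinase of MAPs, was lower in 5 of 6 pairs by 0.26 (limma adjusted p = 0.184), and the 2 activators of Cdk5 lay on opposite sides of 0. Cdk5r2 (p39) ranged from 8.13 to 10.11 in control and from 7.84 to 9.87 in ACE and was lower in 6 of 6 pairs by 0.26 (SE 0.03, limma adjusted p = 0.141), and Cdk5r1 (p35) was higher in 5 of 6 pairs by 0.29 (SE 0.10, limma adjusted p = 0.254).

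Enzymes that add or remove side chains on tubulin gave 3 probes lower and 0 higher of 18, namely Ttll12 (-0.14, limma adjusted p = 0.164), a Ttll11 probe (-0.18, limma adjusted p = 0.198) and Agbl5 (-0.13, limma adjusted p = 0.201), while the second Ttll11 probe differed by 0.04. Genes of nucleation and filament ends gave 2 higher and 1 lower of 23, motor adaptors 1 higher and 2 lower of 23, with the dynactin subunit Dctn1 at -0.23 (limma adjusted p = 0.245), and genes of tubulin folding and severing 0 of 13 in either direction. The other intermediate filament genes gave 2 higher and 1 lower of 13, namely Prph (0.26, limma adjusted p = 0.231), Synm (0.09, limma adjusted p = 0.248) and Lmnb1 (-0.44, limma adjusted p = 0.214).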

How the data were processed

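Levels came from 12 single-dye arrays, 6 control and 6 ACE. The authors extracted the deposited spot intensities with Agilent Feature Extraction (11.0.1.1 for replicate 1, otherwise 11.5.1.1 per the file headers), background subtracted but not scaled between arrays. Their deposited log2 table, quantile normalised and centred per probe, was an alternative (r of 0.997 to 0.999 per array). Here control spots and flagged outlier spots were left out, log2 intensities were quantile normalised, spots of a probe were averaged, and probes above the 20th percentile of their array on at least 7 of 12 arrays with at least 4 complete pairs were tested with limma 3.58.1 in R 4.3.3 (two-sided, replicate as a block, Benjamini-Hochberg over all probes, threshold 0.05). The study used a paired rank test with q-values, and the exact signed-rank test was an alternative here. The script was tested on simulated data. Figures used matplotlib in Python.

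A number marked cultures of a single litter. Deviations from group means correlated at 0.449 to 0.912 within a number and at -0.438 to 0.39 between numbers. No scan saturated (0 spots), and arrays within a group correlated at 0.991 at most. Each slide held a pair, with control at place 1 and ACE at place 3, so place and exposure cannot be told apart. The number of arrays limits the precision.

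A probe was a member where either annotation version named it so. Current symbols were matched for 102 of the 124 probes through RefSeq identifiers, with 0 differing. Members, gene lists and named genes were chosen with earlier results of these data known. Named were 24 genes (by their brightest probe), up to 5 probes per direction with unadjusted p below 0.05, the same sign in 6 of 6 pairs and detection over background by 3 or more arrays in whichever group was higher, and the 3 lowest p-values per direction. Other members were named after their values were seen.

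Tried as alternatives were other scalings, background corrections and filters, outlier spots kept, the replicate as no block or a random block, the scan batch of replicates 4, 5 and 6 alone, each replicate left out, the mean of the probes of a gene, and, added after seeing the data, members named in all 12 files.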

Additional observations from a re-analysis of the deposited data

Results flagged for a closer look

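In 10 of 86 groups of 6 arrays, over the named genes and the role groups, the lowest or highest array stood apart from the other 5 (chance flags about 5% of groups). In replicate 3 the control array of Nefm was at 8.50 (others 9.34 to 9.54) and its ACE array at 8.71 (others 9.32 to 9.51), and the control array of Stmn2 was at 12.89 (others 13.54 to 13.86). The alpha tubulin mean of replicate 3 was 13.17 in control (others 13.55 to 13.66) and 13.18 in ACE (others 13.53 to 13.67). Its beta tubulin mean was 14.41 in control (others 14.61 to 14.72) and 14.45 in ACE (others 14.67 to 14.78). Both arrays of replicate 3 were low each time, although for Stmn2 only the control array stood apart. Both arrays of replicate 3, and no others, carried the newer version of the array annotation file, and its slide was scanned apart, as were those of replicates 1 and 2. The part of either in these values was not tested. Kif7 was highest in replicate 1, at 6.78 in control (others 5.29 to 5.80) and 6.62 in ACE (others 4.93 to 5.52). The arrays of replicate 1 were extracted with another software version. They had 91.0% (control) and 90.4% (ACE) of spots well above background, beside 75.4% to 84.7% on the other arrays. The part of either in the Kif7 values was not tested. The mean of the structural MAPs was lowest in control replicate 2, at 11.71 (others 11.98 to 12.15).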

How the results depend on the processing

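Under each alternative tried, other than the mean of the probes of a gene, for which no count is given, no member passed the adjusted threshold (0 in each). At unadjusted p below 0.05, ACE was above control for 11 member probes and below it for 4 (beside 6.9% and 9.73% over the array). The 75th percentile shift gave 7 and 8 (3.39% and 14.3%), the deposited values 17 and 4 (8.62% and 8.13%), the filter on well above background 12 and 7 (7.68% and 10.8%), and the exact signed-rank test 5 and 3 (4.72% and 6.86%). With the replicate number not used as a block, pairs were ignored and 0 higher and 0 lower were left (0.185% and 0.155%), as the spread between replicates entered the error. With the replicate as a random block 10 were higher and 3 lower (7.78% and 8.98%), 5 probes of the array but no member passed adjustment, and Tuba3b, Dynlrb2, Dpysl4, Dync1i1, Kif1b and Kif22 did not pass unadjusted. Leaving out each replicate gave 6 to 11 higher (6 without replicate 2 or 5, beside 4.89% and 5.41% of all probes) and 3 to 8 lower (8 without replicate 3, beside 10.8%), and a median between 0.01 and 0.0319. The median over members moved from 0.0244 to -0.00179 with the 75th percentile shift, and with no other alternative by more than its spread between pairs. The 113 tested members named in all 12 files gave 10 higher and 4 lower (6.9% and 9.73% of all probes). The cause of these changes was not tested. Over the named genes, 422 alternative values kept their side of the unadjusted threshold, 38 lost it, 10 gained it, 2 moved beyond the spread between pairs, and 0 reversed. For role group medians 175 values stayed within that spread and 5 moved beyond it. Kif7 and Kif4a were not well above background on every array (5 of 6 ACE arrays for Kif7), which limits what can be said of them.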
